A study of Mus musculus with 4 samples.

Results

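Bc1 and 8 genes whose products meet in the control of translation at the synapse (Fmr1, Fxr1, Fxr2, Cyfip1, Cyfip2, Cpeb1, Cpeb3 and Syncrip) were taken by symbol from an RNA sequencing table of 18854 genes. All 9 were in the table, and all 9 passed the filter on low values. The set was chosen by the measured fall of Bc1, the lowest log2 fold change in the comparison described here, to which genes of the same repressor machinery were added. So the differences between groups are given for these genes as a description and no p-value is attached to them. The samples were wild-type mouse cortical neurons, given in the design text as 15 days in culture. The p53 activator group was given Nutlin-3, which keeps Mdm2 from binding p53, for 2 days, and the other group is titled DMSO, although its treatment label reads as untreated. There were 2 libraries of total RNA, depleted of ribosomal RNA, in each group. Nothing in the labels says that these came from separate cultures, so the spread between them may be technical.

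Bc1 is a short noncoding RNA of rodent neurons. It is made by RNA polymerase III, descends from a transfer RNA gene, travels into dendrites, and represses the start of translation through the helicase eIF4A and the poly(A)-binding protein. FMRP, the product of Fmr1, is an RNA-binding protein that holds back translation of many synaptic mRNAs, and its loss causes fragile X syndrome. Fxr1 and Fxr2 encode its paralogs. Cyfip1 links FMRP to the cap-binding protein eIF4E, and with its relative Cyfip2 it also sits in the WAVE complex that drives actin branching. Cpeb1 and Cpeb3 encode proteins that bind elements near the ends of mRNAs and control their poly(A) tails and translation, and Syncrip encodes hnRNP Q, an RNA-binding protein of dendritic granules.

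The Bc1 RNA is shown because its build sets it apart from the other 8 genes. The sequence is the 168-base GENCODE vM21 transcript, and RefSeq ends it 14 bases earlier. Capitals mark the letters of the A box (bases 14 to 24, searched as the 3 stretches T, GC and AGTGG with 1 free letter after the first and 2 after the second) and of a B box in a form loosened after the sequence was read (GTTCGNNNC, bases 58 to 66), the internal promoter elements of transfer RNA-like genes.

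Bc1 RNA: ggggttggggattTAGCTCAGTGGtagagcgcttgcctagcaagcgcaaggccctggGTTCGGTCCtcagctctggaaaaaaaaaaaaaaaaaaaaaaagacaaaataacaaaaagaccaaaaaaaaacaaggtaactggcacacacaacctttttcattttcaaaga

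The first 76 bases, the transfer RNA-like part, are 61.8% G and C, and the remaining 92 bases are 64.1% A, with a longest run of 23 A. Neither box had a match on the opposite strand. Among the first 168 bases of 135207 GENCODE transcripts of at least that length, 0.455% held the A box letters, 1.73% the B box letters and 0.00888% both. As the B box form was loosened after Bc1 was read, its share and the joint share are no test of the boxes.

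The 250 bases upstream of Bc1 are set beside those of Cpeb1 and Cyfip2, the other members that passed the threshold described below. They are RefSeq promoter windows on GRCm38.p6, each read on the gene's own strand, and capitals mark CpG pairs.

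Bc1, chr7:144914220-144914469, plus strand: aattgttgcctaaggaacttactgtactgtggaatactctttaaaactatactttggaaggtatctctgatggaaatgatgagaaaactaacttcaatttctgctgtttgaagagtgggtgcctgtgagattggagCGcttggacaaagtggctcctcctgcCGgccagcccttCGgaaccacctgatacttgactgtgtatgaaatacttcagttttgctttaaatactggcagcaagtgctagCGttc

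Cpeb1, chr7:81454759-81455008, minus strand: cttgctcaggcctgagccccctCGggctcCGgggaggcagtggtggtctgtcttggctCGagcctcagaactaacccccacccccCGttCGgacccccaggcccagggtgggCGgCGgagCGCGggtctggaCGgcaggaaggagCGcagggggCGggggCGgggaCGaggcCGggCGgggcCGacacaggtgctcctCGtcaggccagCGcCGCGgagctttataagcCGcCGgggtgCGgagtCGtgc

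Cyfip2, chr11:46312359-46312608, minus strand: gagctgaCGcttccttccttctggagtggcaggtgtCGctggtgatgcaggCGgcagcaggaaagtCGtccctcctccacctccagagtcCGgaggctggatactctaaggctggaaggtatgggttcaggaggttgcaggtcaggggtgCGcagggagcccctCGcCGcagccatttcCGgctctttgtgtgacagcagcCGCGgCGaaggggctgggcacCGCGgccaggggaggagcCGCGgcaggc

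The Bc1 window holds 4 CpG pairs and is 43.2% G and C. The Cpeb1 window holds 25 and is 74% G and C, and the Cyfip2 window holds 16 and is 66.4% G and C, where the median window held 6 CpG pairs. CYFIP2 was described in human cells as a p53-inducible gene. The p53 half-site consensus, which reads the same on both strands, had 0 matches in the 11 listed promoter windows of 8 of the genes (250 bases before to 50 after each start; Cyfip1 was not searched), against 8.36% of 32851 windows with a match, and this says only that these letters are not in these windows.

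The DMSO libraries held 14584247 and 14968028 reads and the activator libraries 19065197 and 17716272. Values are CPM, a gene's reads scaled to a library total of 1000000. Mitochondrial RNAs took 15.6% and 14.3% of the DMSO reads and 8.97% and 9.99% of the activator reads, and nuclear protein-coding genes 74.7% and 77.0% against 84.3% and 83.8%. A rise in CPM of a protein-coding gene therefore stands beside this shift, and values scaled to protein-coding reads are given beside the members. In bulk RNA, fewer cells of a type and less RNA per cell cannot be told apart.

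Bc1 fell in both activator libraries. It stood at 319 CPM (4652 reads) and 123 CPM (1834 reads) in the DMSO libraries, and at 10.2 CPM (195 reads) and 40.1 CPM (710 reads) in the activator libraries. The groups did not overlap: the lower DMSO library lay 3.06 times above the higher activator library, and the DMSO mean 8.78 times above the activator mean. The log2 fold change on the log2(CPM + 1) scale was -3.21 ± 0.18 (SE, n = 2 per group), the lowest of the 16654 genes tested. That SE comes from a spread moderated towards that of all genes (98.0 prior degrees of freedom), while the replicates of Bc1 had SDs of 0.97 (DMSO) and 1.32 (activator) on this scale. The SE was 1.16 with limma's robust variance model, which moderates genes of unusual spread less, and 1.07 in DESeq2. The gene with the next lowest stood at -1.63.

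The replicates of Bc1 differed from each other more than those of any other gene at its level. The DMSO libraries differed 2.60-fold and the activator libraries 3.92-fold. Among 7201 genes with a mean of at least 20 CPM, 0 others had a replicate ratio as large in either group. The next widest ratios were 1.54 in DMSO and 2.10 with the activator, and the medians were 1.06 in both groups. Setting aside p53 activator replicate 1 gave Bc1 a log2 fold change of -2.28, and setting aside DMSO replicate 1 gave -2.52. With the robust variance model Bc1 was not called.

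**Figure D1:**
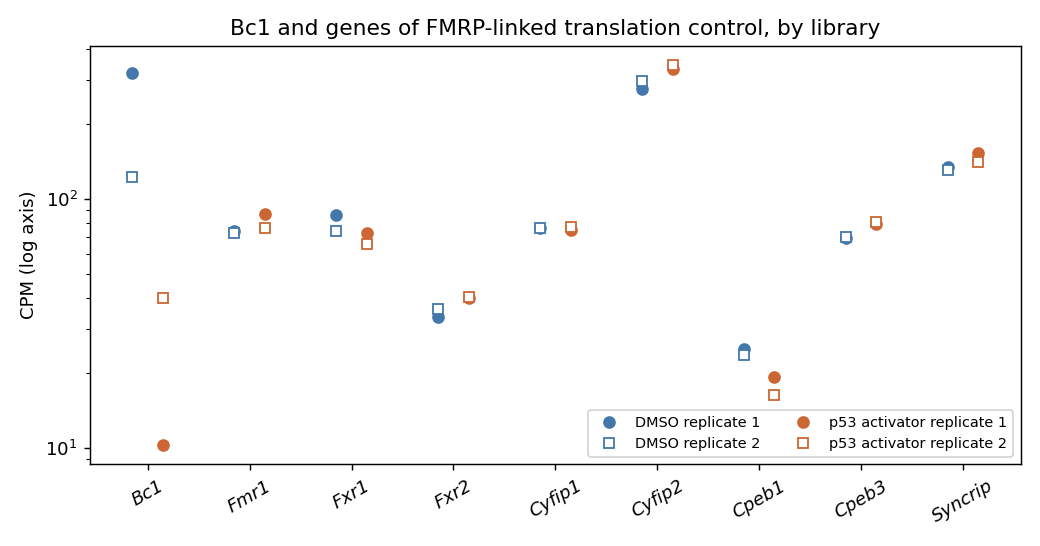
CPM on a log axis for Bc1 and the 8 protein-coding genes, with 1 point per library (blue DMSO, orange p53 activator, filled replicate 1, open replicate 2). Bc1 spans 10.2 to 319 CPM, while the points of each protein-coding gene lie close together.

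The same 4 libraries gave tight values for the 8 protein-coding genes, on 288 to 6336 reads per gene and library. Together they summed to 776 and 781 CPM in DMSO and 859 and 843 CPM with the activator. Bc1 amounted to 41.1% and 15.7% of that sum in the DMSO libraries and to 1.19% and 4.76% in the activator libraries. Of the 9 genes, 1 was called higher and 2 lower at a limma adjusted p under 0.05. Of all genes tested 16.9% were called higher and 16.3% lower, 33.2% in all, which is about the share among the members. The 2 groups stood apart without overlap in 8 of the members, beside 67.6% of all genes tested.

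None of the 3 FMRP family genes was called. Fmr1 was at 74.1 and 72.8 CPM (DMSO) and at 86.9 and 76.6 CPM (activator), a log2 fold change of 0.15 ± 0.08 (SE) that was not called. Fxr1 was at 85.7 and 74.5 CPM (DMSO) and at 73.0 and 65.9 CPM (activator) (-0.20 ± 0.08, not called, although 10 of 17 alternative settings called it lower, among them leaving out DMSO replicate 2 or p53 activator replicate 1). Both activator libraries were above both DMSO libraries for Fmr1 and below both for Fxr1, and the gaps were narrow: 74.1 to 76.6 CPM and 74.5 to 73.0 CPM. Fxr2 was at 33.6 and 36.0 CPM (DMSO) and at 40.1 CPM in each activator library (0.20 ± 0.09, not called). The summed level of the 3 genes overlapped between groups, at 193 and 183 CPM in DMSO and 199.9 and 183 CPM with the activator.

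The CPM ratio of Fmr1 to Fxr1 was higher in both activator libraries than in both DMSO libraries. A ratio of 2 genes within a library is free of how that library is scaled, and, as it is not per length, it says how the balance differed between libraries and not which transcript was more abundant. The ratio of Fmr1 to Fxr1 CPM was 0.865 and 0.977 in DMSO and 1.19 and 1.16 with the activator. The ratio of Fmr1 to Fxr2 overlapped between groups, at 2.21 and 2.02 in DMSO and 2.17 and 1.91 with the activator. With 2 libraries per group an exact permutation test cannot go below p = 0.333, so no test of these ratios was made.

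Of the CYFIP pair, Cyfip2 rose and Cyfip1 was not called. Cyfip2 was at 277 and 297 CPM (DMSO) and at 332 and 345 CPM (activator) (log2 fold change 0.24 ± 0.08 SE, called higher). Cyfip1 was at 76.6 and 76.2 CPM (DMSO) and at 75.1 and 76.9 CPM (activator) (-0.01 ± 0.08, with a 95% interval from -0.17 to 0.15), and was the 1 gene of the 9 whose groups overlapped. The CPM ratio of Cyfip2 to Cyfip1 was 3.61 and 3.90 in DMSO and 4.43 and 4.48 with the activator. The call of Cyfip2 held in 9 of 17 alternative settings. It was lost when CPM were divided by each library's share of protein-coding reads (0.09) and with quantile normalization (0.10). TMM scaling (0.20), no variance trend (0.24), edgeR (0.21) and DESeq2 (0.23) did not call Cyfip2 either. Nor was it called without DMSO replicate 1 (0.19) or p53 activator replicate 2 (0.21).

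Cpeb1 fell, and Cpeb3 had higher values under the activator without a call. Cpeb1 was at 25.03 and 23.6 CPM (DMSO) and at 19.2 and 16.3 CPM (activator), a log2 fold change of -0.44 ± 0.11 (SE) that was called lower. Cpeb3 was at 69.9 and 70.3 CPM (DMSO) and at 79.2 and 80.9 CPM (activator) (0.19 ± 0.08, not called). The ratio of Cpeb3 to Cpeb1 was 2.79 and 2.98 in DMSO and 4.13 and 4.98 with the activator. The call of Cpeb1 was lost without p53 activator replicate 2 (-0.32), and also with no trend of limma's spread.

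The other 2 genes of the CPEB family were higher in both activator libraries. Cpeb2 rose from 89.7 and 96.0 CPM to 111 and 109 CPM (0.24 ± 0.08 SE, limma adjusted p = 0.0138). Cpeb4 was at 267 and 272 CPM (DMSO) and at 308 and 297 CPM (activator) (0.16 ± 0.08, limma adjusted p = 0.0943). Cpeb1 was thus the 1 gene of this family with lower values under the activator. Cpeb2 had no call when protein-coding reads set the scale (0.09, limma adjusted p = 0.390) or with quantile normalization (0.12, limma adjusted p = 0.213). TMM scaling (limma adjusted p = 0.0616), no variance trend (0.140), edgeR (edgeR adjusted p = 0.0670) and DESeq2 (DESeq2 adjusted p = 0.0953) gave no call either. The same held when DMSO replicate 1 (0.19) or p53 activator replicate 1 (0.22) was left out.

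Syncrip was at 135 and 130 CPM (DMSO) and at 153 and 141 CPM (activator) (log2 fold change 0.15 ± 0.08 SE, not called). Its closest relative Hnrnpr, which encodes hnRNP R, fell from 105 CPM in each DMSO library to 85.8 and 83.9 CPM (-0.30 ± 0.08, limma adjusted p = 0.00172). Of the 4 tested relatives of Syncrip, Hnrnpr was the 1 called lower, and 0 were called higher by limma, edgeR or DESeq2 (0 also at an unadjusted p under 0.05 in each).

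**Figure D2:**
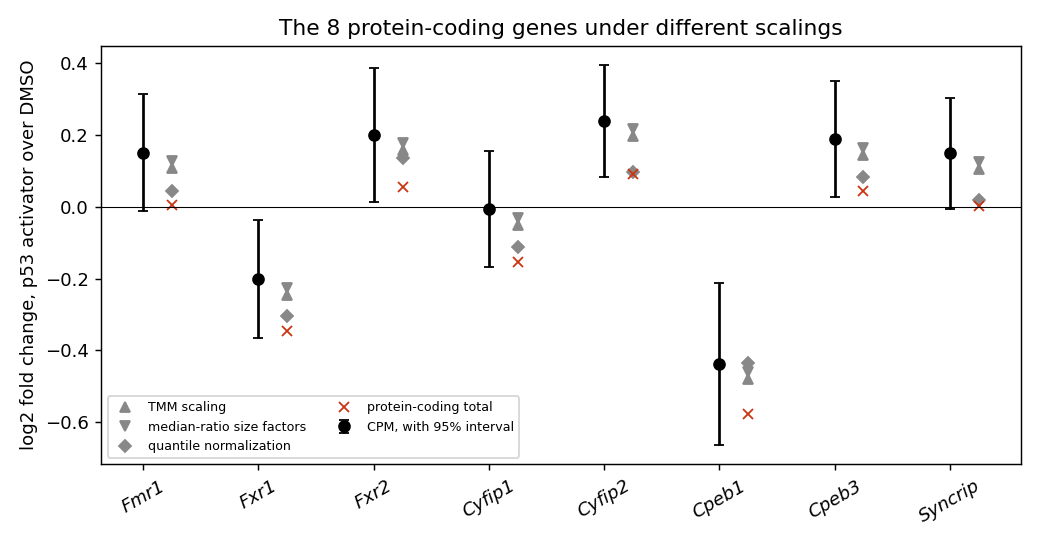
Log2 fold change of the activator over DMSO for the 8 protein-coding genes: black points with 95% intervals (limma, log2(CPM + 1), n = 2 per group), and the same value under 4 other scalings beside each. Cpeb1 and Fxr1 stay below 0 under each scaling, and Fmr1 and Syncrip come down to 0.00 when protein-coding reads set the scale.

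Scaling to protein-coding reads moved the median log2 fold change of all genes tested from 0.03 to -0.10. Under it Fxr1 stood at -0.35 and Cpeb1 at -0.58, both called lower, while Fmr1 (0.00), Syncrip (0.00), Cpeb3 (0.04), Fxr2 (0.06) and Cyfip2 (0.09) were not called. The ratios of relatives within a library do not depend on this choice.

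**Figure D3:**
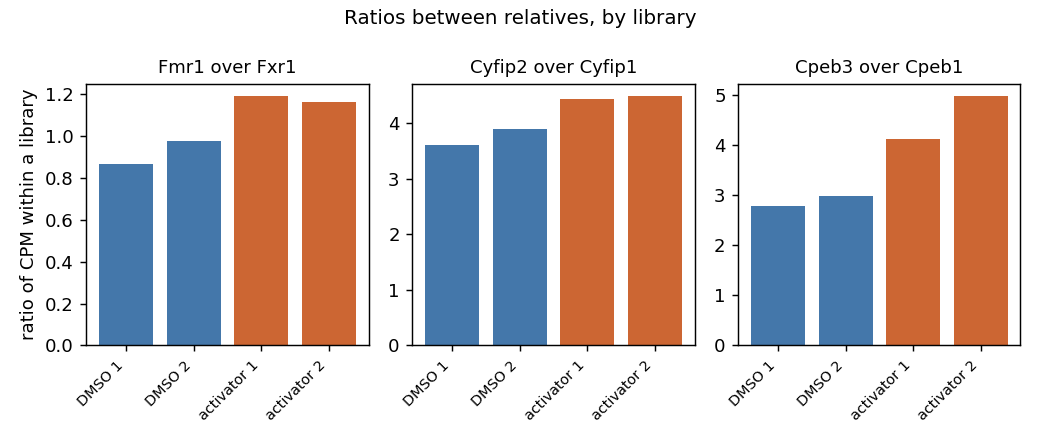
Ratio of CPM between relatives within each library (blue DMSO, orange p53 activator, bars from 0). For Fmr1 over Fxr1, Cyfip2 over Cyfip1 and Cpeb3 over Cpeb1 both activator libraries lie above both DMSO libraries.

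Levels of different genes were compared per kilobase of the longest GENCODE transcript. In DMSO, Bc1 averaged 1314 CPM per kb, with 1899 and 729 in the 2 libraries. Cyfip2 averaged 43.1, Fxr1 26.6, Fmr1 16.7, Syncrip 14.0, Cpeb3 11.9, Cyfip1 11.9, Fxr2 11.8 and Cpeb1 7.81. The libraries of neighbours down to Syncrip did not overlap, while Cpeb3, Cyfip1 and Fxr2 did not differ beyond their spread. Even at its lowest, in p53 activator replicate 1, Bc1 held 60.9 CPM per kb, beside 49.9 for Cyfip2 in that library. The sources used here do not give whether reads in introns were counted. Per kilobase of the whole RefSeq gene the DMSO order was Bc1 (1433), Syncrip (3.98), Cyfip2 (2.41), Fmr1 (1.86), Fxr2 (1.71), Fxr1 (1.60), Cyfip1 (0.843), Cpeb3 (0.372) and Cpeb1 (0.219).

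Other short structured RNAs were lower with the activator too, by less than Bc1. Of 9 tested RNAs on a list of polymerase III products and other short RNAs, 6 fell and 1 rose. The median log2 fold change was -0.58 beside 0.03 for all genes tested, of which 16.3% were called lower. Of the 6, Rny1 and Rnu12 reached the filter's 1 CPM in the DMSO libraries only, so only a fall could be called. At a minimum of 5 CPM, 3 fell and 1 rose. Rn7sk, which restrains the elongation factor P-TEFb, was at 843 and 639 CPM (DMSO) and at 403 and 598 CPM (activator) (-0.58 ± 0.10 SE, limma adjusted p = 1.21e-06). Rmrp, the RNA of a ribosomal RNA processing enzyme, stood at 283 and 231 CPM and at 131 and 214 CPM (-0.61 ± 0.09, limma adjusted p = 1.24e-07). For both, as for Bc1, DMSO replicate 1 was the highest library and p53 activator replicate 1 the lowest.

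The Y RNAs, which bind the Ro protein, were scarce. Rny3 fell from 4.39 and 6.15 CPM to 1.99 and 2.09 CPM (-1.03) and Rny1 from 2.13 and 1.87 CPM to 0.629 and 0.677 CPM (-0.86). Rnu12, a spliceosomal RNA, fell as well (-0.69). Rn7s1 and Rn7s2, near-identical copies of the signal recognition particle RNA between which reads are hard to assign, stood at -0.41 each, with a call for Rn7s2 only. Rn7s1 was called lower with protein-coding scaling (adjusted p = 0.00228), limma's robust variance model (0.000426), the replicate block (0.0271), edgeR (0.0247) and DESeq2 (5.2e-05), and without DMSO replicate 2 (0.00135). The RNase P RNA Rpph1 was not called (0.15), and the related Rprl3 rose (0.35). The calls of Rnu12 and Rprl3 were lost when DMSO replicate 2 or p53 activator replicate 2 was left out, and that of Rn7s2 when either activator library was.

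The libraries stood in the order of Bc1 (DMSO replicate 1, DMSO replicate 2, p53 activator replicate 2, p53 activator replicate 1, from high to low) for Rn7sk, Rmrp and Rny1, which is 3 of the 9, and for 6.20% of all genes tested. Of these, Rny1 passed the filter only through its DMSO libraries. Bc1 was lower in the activator libraries also as a ratio to Rn7sk and Rmrp within a library. Its ratio to Rn7sk was 0.378 and 0.192 in DMSO and 0.0254 and 0.0670 with the activator, and its ratio to Rmrp 1.13 and 0.530 against 0.0783 and 0.187. What part RNA quality or the capture of short fragments had in this was not tested. Rn7sk and Rmrp lost their calls without p53 activator replicate 1 (adjusted p = 0.0767 and 0.0502), with limma's robust variance model (0.226 and 0.394) and in DESeq2 (0.303 and 0.340), and 3 of the 9 RNAs were called lower without that library.

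**Figure D4:**
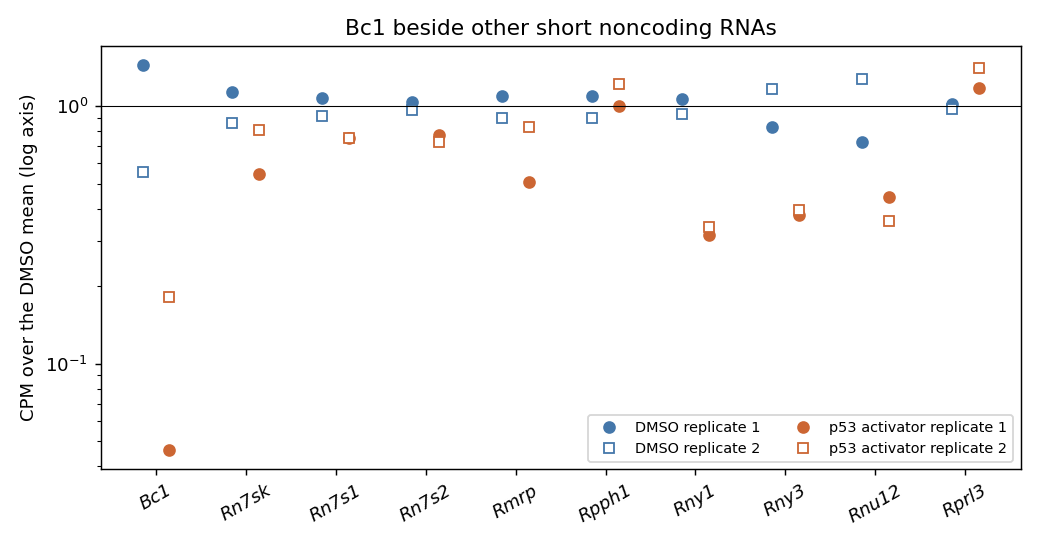
CPM of each library over the gene's DMSO mean, on a log axis, for Bc1 and 9 other short noncoding RNAs (blue DMSO, orange p53 activator, filled replicate 1, open replicate 2). Bc1 lies lowest in both activator libraries, followed by the scarce Rny1, Rny3 and Rnu12, while Rpph1 overlaps between groups and Rprl3 lies above its DMSO libraries.

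Genes that make polymerase III transcripts were mostly not called. Of 29 tested, 2 rose and 2 fell (6.90% each), with a median log2 fold change of 0.01. Among nuclear protein-coding genes 20.9% were called higher and 7.34% lower, with a median of 0.09. Polr3gl, a subunit of the enzyme, fell from 26.4 and 20.7 CPM to 15.3 and 12.9 CPM (-0.70 ± 0.12 SE, limma adjusted p = 2.71e-06). Snapc3, part of the complex that opens upstream polymerase III promoters, fell from 145 and 130 CPM to 105 and 91.7 CPM (-0.48). Gtf3c4 (0.35) and Gtf3c1 (0.20), subunits of the factor that binds the A and B boxes, rose. The call of Gtf3c1 did not hold with TMM scaling (adjusted p = 0.157), quantile normalization (0.467), median-ratio size factors (0.0997), protein-coding scaling (0.659), no variance trend (0.222), edgeR (0.168) or DESeq2 (0.202). Leaving out DMSO replicate 1 gave an adjusted p of 0.432, and leaving out p53 activator replicates 1 and 2 in turn gave 0.0656 and 0.216. Also, without DMSO replicate 2 the list had 3 rises and 4 falls, and with protein-coding scaling it had 0 rises and 5 falls.

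The profiles nearest to Bc1 were those of mitochondrial and predicted genes, and none lay close to it. The measure was the root mean square difference over the 4 libraries between centred log2(CPM + 1) profiles, among 14379 genes with a mean of at least 2 CPM, and the Bc1 profile itself has a size of 1.80 by it. Mitochondrial ATP8 lay nearest at 0.975, then mitochondrial TrnS1 at 1.16 and the predicted genes Gm33977, Gm52250 and Gm46254 at 1.20 each. ATP8 was at 904 and 657 CPM (DMSO) and at 206 and 302 CPM (activator), with the lowest log2 fold change after Bc1 (-1.63). The measure keeps the size of a fall, so it favours genes with large falls, and Bc1 was chosen by its fall.

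The genes that neighbour Bc1 were not called. LTO1, a neighbour in RefSeq, was at 11.4 and 10.2 CPM (DMSO) and at 12.5 and 10.4 CPM (activator) (0.08 ± 0.14 SE, limma adjusted p = 0.709). Ccnd1, which encodes cyclin D1, was at 11.999 and 12.5 CPM and at 12.4 and 13.6 CPM (0.08 ± 0.13, adjusted p = 0.683). Both were named after their values were seen, and both had negative values when protein-coding reads set the scale (-0.06 each). Bc1 overlaps no other gene in GENCODE vM21, although its transfer RNA-like part has many relatives among genomic repeats and a Bc1 pseudogene is annotated, so reads may have been shared with them. Fxr1, Cyfip1, Cyfip2 and Cpeb3 are overlapped on the other strand by Dnajc19, Nipa2, Fndc9 and A330032B11Rik. The use of strand in counting is not given in the sources used here. Of these 4, A330032B11Rik, at 1.44 and 1.60 CPM in DMSO and 0.315 and 0.564 CPM with the activator, was the 1 called (-0.81). It reached the filter's 1 CPM in the DMSO libraries only, so only a fall could be called for it.

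Genes for proteins that work with FMRP and Bc1 were more often called higher than lower in CPM. Of 26 tested, 10 rose and 4 fell, with a median log2 fold change of 0.16, beside 20.9% of nuclear protein-coding genes called higher, 7.34% called lower and their median of 0.09. Ddx6, a helicase of RNA granules, rose from 220 and 215 CPM to 280 and 264 CPM (0.32 ± 0.08 SE, limma adjusted p = 0.000677), and Purb, which binds Bc1 and single-stranded DNA, from 624 and 663 CPM to 842 and 788 CPM (0.34). Hnrnpa2b1, which carries RNAs into dendrites, fell from 155 and 138 CPM to 105 and 115 CPM (-0.41), and Tdrd3, a partner of FMRP, from 71.2 and 66.7 CPM to 54.8 and 46.7 CPM (-0.44). Without p53 activator replicate 1, 3 of the 26 rose, and without DMSO replicate 1, 2 fell. Purb was not called without p53 activator replicate 1, nor with quantile normalization (limma adjusted p = 0.0770). Ddx6 was not called when protein-coding reads set the scale (0.17, limma adjusted p = 0.0647). With no variance trend 0 of the 26 rose and 0 fell. When protein-coding reads set the scale, 1 rose and 5 fell, and with quantile normalization 1 rose and 3 fell.

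Of 10 tested genes of the WAVE complex and Rac, with which the CYFIP proteins act on actin, 6 rose and 0 fell in limma, with a median of 0.27. That is 60% called higher, beside 20.9% higher and 7.34% lower among nuclear protein-coding genes. Fold changes in the list ran from -0.46 to 0.47. At an unadjusted p under 0.05, 1 was lower in limma, and edgeR and DESeq2 called 0 lower. With quantile normalization 3 of the 10 rose, and with no variance trend 2 rose. Rac1, the GTPase that switches the complex on, rose from 115 and 124 CPM to 166 CPM in each activator library (0.47 ± 0.08 SE, limma adjusted p = 6.45e-07). Wasf1 encodes the main WAVE protein of neurons. It rose from 111 and 122 CPM to 145 and 165 CPM (0.41), without a call under no variance trend (limma adjusted p = 0.0632). Both calls held when protein-coding reads set the scale, where 3 of the 10 rose and 1 fell, and 1 also fell without p53 activator replicate 1.

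Among 16 other repressors that act at the cap or the 3′ end of mRNAs, 4 rose (25%) and 2 fell (12.5%), with a median of 0.12. Nuclear protein-coding genes had 20.9% called higher and 7.34% lower, with a median of 0.09, so the list lay near them. Paip2b, an inhibitor of the poly(A)-binding protein, rose from 37.4 and 38.0 CPM to 54.8 and 43.9 CPM (0.37 ± 0.09 SE, limma adjusted p = 0.00113) and the Pumilio partner Nanos1 by 0.36 on the log2 scale. Gigyf1, a partner of a cap-binding repressor, fell (-0.31), as did the scarce Eif4ebp3 (-0.55). Without DMSO replicate 1, 1 rose and 0 fell, and leaving out an activator library, either one, left 2 rises and 1 fall. With protein-coding scaling 0 rose and 2 fell, and Paip2b and Nanos1 lost their calls (adjusted p = 0.0803 and 0.0917). Paip2b also lost its call without p53 activator replicate 1, Nanos1 without DMSO replicate 1, Gigyf1 without either of these and Eif4ebp3 without DMSO replicate 1 or p53 activator replicate 2. Of 13 genes of CPEB relatives and cytoplasmic polyadenylation, Cpeb2 and the cleavage factor Cpsf2 (0.27) rose and the poly(A) polymerase Tent2 fell (-0.36), with a median of 0.10. That is 15.4% called higher and 7.69% lower. Leaving out any 1 library left 1 rise, and without DMSO replicate 1 or p53 activator replicate 2 there were 0 falls. With protein-coding scaling this list had 0 rises and 1 fall. Cpsf2 was not called without DMSO replicate 2 or p53 activator replicate 2.

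Of 19 genes that signal to FMRP, 7 rose (36.8%) and 0 fell in limma (median 0.12). Among nuclear protein-coding genes 20.9% rose and 7.34% fell. With limma 0 were lower at an unadjusted p under 0.05, and edgeR and DESeq2 called 0 lower. Ppp2ca, a catalytic subunit of the phosphatase that acts on FMRP, rose from 262 and 256 CPM to 377 and 343 CPM (0.47 ± 0.08 SE, limma adjusted p = 9.56e-07). Without DMSO replicate 1, 2 rose, and leaving out an activator library, either one, left 4. Without p53 activator replicate 1, 1 fell. With protein-coding scaling 2 rose and 1 fell, and with quantile normalization 2 rose. Of 27 mRNAs known as targets of FMRP, 9 rose (33.3%) and 2 fell (7.41%), with a median of 0.15. Nlgn3, a synaptic adhesion protein, rose from 141 and 166 CPM to 187 and 219 CPM (0.40), and the NMDA receptor subunit Grin2a rose by 0.37. The potassium channel Kcnd2 (-0.45) and the scaffold Shank1 (-0.22) fell. Without DMSO replicate 1, 3 targets rose, without p53 activator replicate 2, 2 rose, and in edgeR 4 rose. With protein-coding scaling 3 rose and 5 fell, so the balance turned.

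Messenger RNAs known from dendrites were mostly not called. Of 12 tested, 1 rose (Nrgn, 0.21, limma adjusted p = 0.0499) and 1 fell (Shank1), 8.33% each. Nuclear protein-coding genes had 20.9% called higher and 7.34% lower. The list had a median of -0.01 and fold changes between -0.22 and 0.21. With protein-coding scaling 0 rose and 4 fell. Nrgn was not called with 0.1 (limma adjusted p = 0.0537) or 0.5 (0.0512) in place of the 1 added to CPM. Nor was it called with no filter on low values (0.0571), TMM scaling (0.122), quantile normalization (0.275) or median-ratio size factors (0.0814). The same held for protein-coding scaling (0.607), no variance trend (0.189), edgeR (edgeR adjusted p = 0.105) and DESeq2 (DESeq2 adjusted p = 0.216). Nrgn had an adjusted p of 0.247 with DMSO replicate 1 left out, 0.125 with DMSO replicate 2 left out and 0.354 with p53 activator replicate 1 left out. Shank1 had 0.163 with DMSO replicate 2 left out, 0.164 with p53 activator replicate 1 left out and 0.144 with p53 activator replicate 2 left out. Of 12 neuron markers 9 rose (75%) and 1 fell (8.33%). Their summed level was 6671 to 7382 CPM in DMSO and 7757 to 7845 CPM with the activator. Astrocyte markers (1 of 8 called, Slc1a2, higher) summed to 2232 to 2255 CPM in DMSO and 2600 to 2602 CPM with the activator. Oligodendrocyte lineage markers (0 of 6 tested called, 7 listed) summed to 166 to 172 CPM and 188 to 191 CPM. Microglia markers (0 of 2 tested, 3 listed) summed to 4.34 to 4.53 CPM and 2.88 to 3.67 CPM. Fibroblast and vessel markers (0 of 2 tested, 4 listed) summed to 14.9 to 15.4 CPM and 13.4 to 14.6 CPM. The sums take in listed markers that were not tested. At an unadjusted p under 0.05 limma had 3 oligodendrocyte, 1 microglia and 1 fibroblast and vessel marker, and edgeR and DESeq2 called 0 of them. The scarce microglia marker P2ry12 (-0.50) was called lower with protein-coding scaling (limma adjusted p = 0.0413), the robust variance model (0.0479) and the replicate block (0.0306). Of the oligodendrocyte markers, 1 rose with quantile normalization and 2 with the replicate block. Slc1a2 lost its call when either activator library, or DMSO replicate 1, was left out. Nor was it called with protein-coding scaling (limma adjusted p = 0.310), TMM scaling (0.176), quantile normalization (0.145), median-ratio size factors (0.124) or no variance trend (0.108). Without a filter on low values (0.0521) and in edgeR (edgeR adjusted p = 0.108) it was not called either. The marker sums are in CPM and stand beside the higher share of protein-coding reads in the activator libraries. Of the microglia markers looked for, Cx3cr1, Tmem119, C1qa, C1qb and Trem2 are not listed. The lists differ in length, so their sums were not ranked. The part of cell makeup in the fall of Bc1 was not tested.

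**Figure D5:**
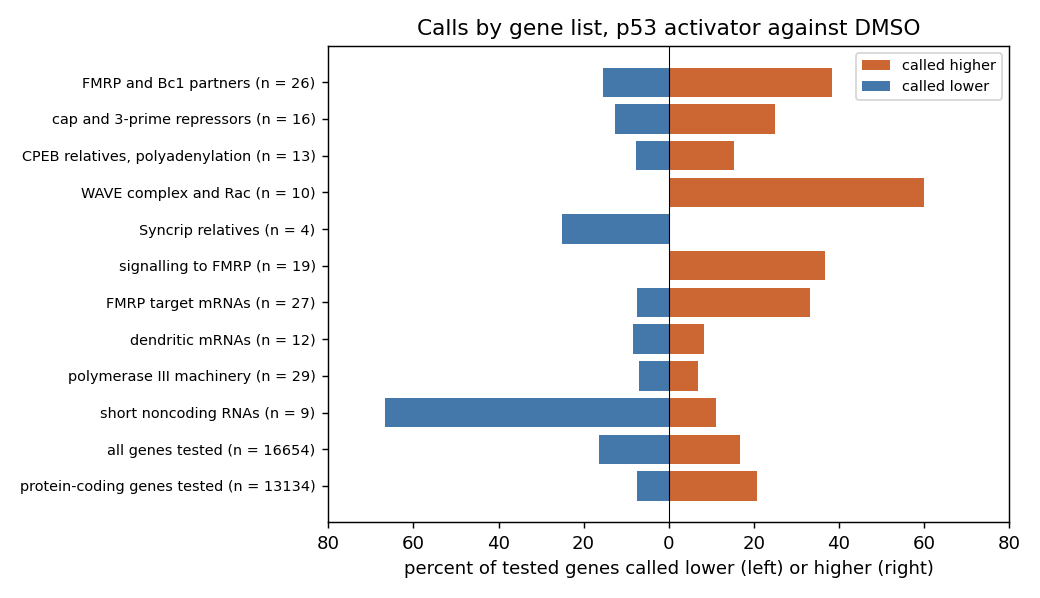
Percent of tested genes called lower (blue, left) or higher (orange, right) at a limma adjusted p under 0.05, for 10 gene lists, all genes tested and nuclear protein-coding genes. Short noncoding RNAs have 66.7% called lower, and the WAVE list has 60% called higher and 0 lower. Of the short RNAs called lower, Rny1 and Rnu12 passed the filter only through the DMSO libraries.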

How the data were processed

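Total RNA was taken up with TRIzol, and ribosomal RNA was removed, per the labels' protocols. The CPM values of the 4 libraries are as the authors deposited them. The unit follows from the numbers themselves: in a column each is a whole multiple of 1 step, and division by that step returned whole numbers of reads for 100% of values (tolerance 0.01 reads). By that step, 0.133% to 0.208% of a library's reads lay outside the listed genes. The submitters' processing notes name TopHat2, Cufflinks 2.0.0 and mm9 with no role. No source used here gives the counter, annotation or use of strand.

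The test took the 16654 genes that reached 1 CPM in 2 or more libraries and left out 2200. limma 3.58.1 in R 4.3.3 was fitted to log2(CPM + 1) with a trend of the spread with expression, two-sided, with Benjamini-Hochberg adjustment and calls at an adjusted p under 0.05. The fit had 2 residual degrees of freedom, and moderation added 98.0 from the spread of all genes. Fold changes of low genes are understated on this scale. edgeR 4.0.16 and DESeq2 1.42.0, run on the recovered reads as alternatives, called 4718 and 2772 genes. The limma code was tested on simulated data.

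The members and the 15 gene lists were chosen with earlier results of these data known. Beside the members, the rule took from each list the 2 called genes with the smallest p in each direction (or the most abundant if none was called), Cpeb2, Cpeb4 and Hnrnpr, every tested short RNA and the 5 profiles nearest to Bc1. Some genes that it took are given only by their list's count. Gene classes came from RefSeq by symbol (18000 of 18854 matched) and transcript lengths from GENCODE vM21 (15895 matched). The printed sequences carry the build of their tables, which is not mm9.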

Additional observations from a re-analysis of the deposited data

How the results depend on the processing

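Over 17 alternatives the log2 fold change of Bc1 stayed negative (-4.15 to -2.28), as did those of Cpeb1 (-0.58 to -0.32) and Fxr1 (-0.35 to -0.10). Fmr1, Fxr2, Cyfip2, Cpeb3 and Syncrip stayed positive. Cyfip1 turned positive without p53 activator replicate 1.

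Of the 9 members, 0 rose with quantile normalization, TMM scaling, protein-coding scaling, no variance trend, edgeR or DESeq2, and 1 fell with no variance trend. Leaving out 1 library gave 0 to 1 rises and 1 to 3 falls. With the replicate number as a block 4 rose (Cyfip2, Fxr2, Cpeb3 and Syncrip) and 3 fell. The numbers are not known to pair the samples: same-numbered deviations correlated at 0.12 across genes, with 2 pairs.

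Over all genes, rises numbered 1632 with quantile normalization, 1822 with TMM, 598 with protein-coding scaling, 302 with no variance trend, 1872 in edgeR and 1279 in DESeq2, against 2811. Falls numbered 1776 at a minimum of 5 CPM and 1493 in DESeq2, against 2721. Leaving out 1 library gave 1138 to 2122 rises and 1445 to 2468 falls. Rises made up 50.8% of calls, 39.7% in edgeR, 38.3% with TMM and 14.0% with protein-coding scaling.

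Over the pathway lists, rises numbered 20 with quantile normalization, 26 with TMM, 9 with protein-coding scaling, 3 with no variance trend, 25 in edgeR and 24 in DESeq2, against 42. Falls numbered 29 with protein-coding scaling and 7 with no variance trend, against 18. Leaving out 1 library gave 21 to 36 rises and 13 to 20 falls. Where only the scale or the spread model differed, the cause was not tested further.

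With quantile normalization Rn7s1 came to 0.00, with no sign. The sign turned with that setting for Rpph1 (-0.021), Dcn (0.041) and Nipa2 (-0.0072), and with protein-coding scaling for LTO1 (-0.057), Ccnd1 (-0.056) and Nipa2 (-0.078). Leaving out 1 library at a time gave -0.025 to 0.010 for Cyfip1, -0.15 to 0.085 for Dcn, -0.043 to 0.20 for LTO1, -0.38 to 0.11 for Fndc9 and -0.15 to 0.039 for the log2 ratio of Fmr1 to Fxr2. Depth left 195 reads for Bc1 in its lowest library.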
